A study of Arabidopsis thaliana with 33 samples.

Results

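Hypocotyl explants of the hy5-2 mutant and of the wild type Col-0 were compared after 4 days on shoot induction medium (SIM) in high light, with 3 libraries of each genotype, so that 6 of the 33 libraries of the series entered the contrast. The 6 libraries were chosen by their labels of genotype, medium, time and light, and every difference below is hy5-2 minus Col-0. The study asked how light signalling through HY5 bears on shoot regeneration from Arabidopsis explants, and sampled 11 groups of 3 biological replicates. Both genotypes came from 7-day-old seedlings raised at 22 °C in continuous low light of 2 µmol per square metre per second. All 6 explant libraries had then passed 4 days on callus induction medium (CIM), which held the auxin 2,4-D at 0.5 mg/L with kinetin at 0.1 mg/L, and 4 days on SIM, which held IAA at 0.15 mg/L and the cytokinin 2-iPA at 0.5 mg/L. High light was 40 µmol per square metre per second. Col-0 cultured alike in low light served as a further group for reading levels. No hy5-2 culture in low light was among the groups. The sources used here do not give the lesion of hy5-2 or the number of explants pooled in a library.

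HY5 is a bZIP transcription factor that accumulates in light because the COP1-SPA ubiquitin ligase, which marks it for degradation in darkness, is inactivated by photoreceptors. It is known to act on genes with ACGT-core elements such as the G-box, among them flavonoid and photosynthesis genes, and its close homologue HYH shares part of this role. In regeneration by successive media, auxin-rich CIM gives a callus with root meristem features, and cytokinin-rich SIM then allows shoot meristems marked by WUS, STM and CUC genes to form.

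The 6 libraries held 8.06 to 21.2 M reads counted over genes, and levels are given as CPM, counts scaled to a common library size with TMM factors. Libraries of the same genotype correlated across genes at r = 0.9898 to 0.9931 on log2 CPM; genes are not independent replicates. The first principal component of the 6 libraries carried 73.9% of their variance and separated the genotypes, with 9.2% on the second. The labels name hypocotyls as the tissue. The gene lists held no marker of hypocotyl as such, but genes of vascular tissue were present in every library, with 12 xylem genes summing to 860 to 965 CPM in hy5-2 and 936 to 1014 CPM in Col-0.

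Of 20842 genes tested, 2167 were higher in hy5-2 (10.4%) and 2085 were lower (10%) at an adjusted p under 0.05 in edgeR's quasi-likelihood test, 20.4% in either direction. Counts called in any gene list below are to be read against these shares of 10.4% and 10%. The median log2 fold change over all tested genes was 0.01. At least 2-fold changes numbered 798 among the higher genes and 719 among the lower ones. At least 32-fold changes were unequal in number, with 6 genes higher and 46 lower. F3H, PSBS, FLS1 and CHS, of flavonol synthesis and photoprotection, led the falls among the genes named here. Without hy5-2 replicate 3, the highest library for several root genes, 1573 genes were higher and 1674 lower.

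**Figure D1:**
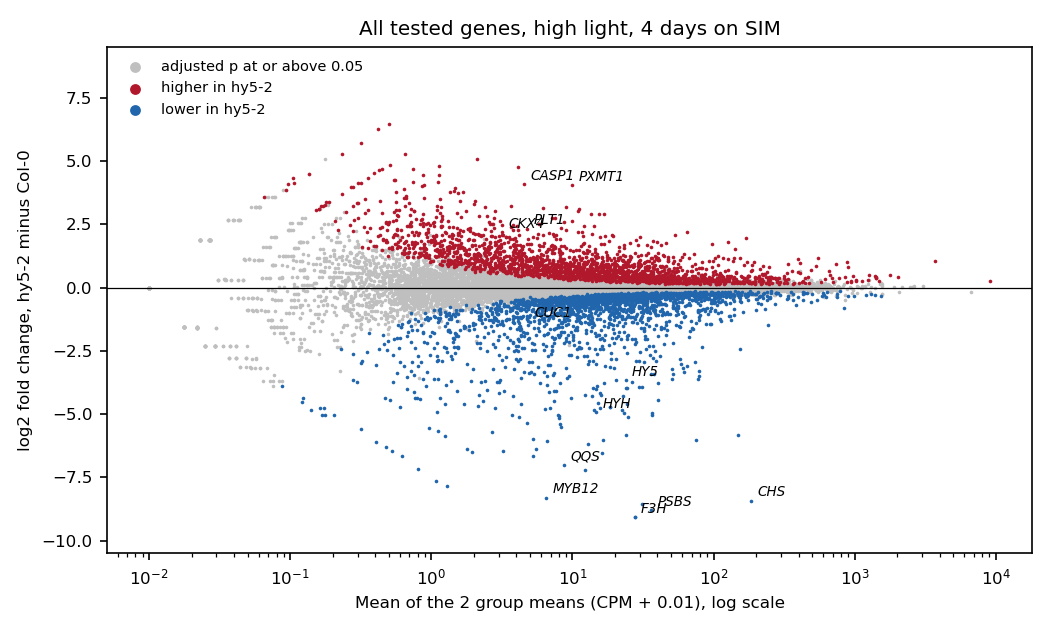
Each point is 1 of the 20842 tested genes, with the mean level as CPM plus 0.01 on a log axis against the log2 fold change, hy5-2 minus Col-0; red and blue points passed the adjusted p of 0.05. The lower side reaches -9.07 at F3H, with CHS and PSBS close to it, while labelled genes on the higher side such as CASP1 and PXMT1 lie near 4.

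HY5 and the genes of its own pathway were first examined, which also checks the genotype labels. HY5 (AT5G11260, chromosome 5, 3593380 to 3594992, minus strand, TAIR10) stood at 3.21, 3.53 and 3.75 CPM in hy5-2 and at 47.5, 38.5 and 46.0 CPM in Col-0. All 3 libraries labelled hy5-2 lay far below all 3 labelled Col-0. Its log2 fold change was -3.65 ± 0.17 (SE, adjusted p = 6.74e-17). HYH (AT3G17609, chromosome 3, 6023866 to 6024698), the homologue of HY5, read 1.098, 0.981 and 0.709 CPM in hy5-2 against 29.1, 24.6 and 32.1 CPM in Col-0, a change of -4.91 ± 0.24 (adjusted p = 1.19e-16). With a mean of 0.929 CPM, HYH in hy5-2 was also below the 5.90 CPM of Col-0 in low light (-2.55, adjusted p = 3.65e-07).

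Of 20 light signalling genes tested, 10 were lower and 2 higher, with a median of -0.24. Among all genes 10% were lower and 10.4% higher. SPA3, SPA4 and SPA1, which encode partners of COP1, fell together. SPA3 averaged 15.9 ± 0.239 CPM (SD, n = 3) in hy5-2 and 47.9 ± 1.52 CPM in Col-0 (-1.59 ± 0.10, adjusted p = 9.34e-15), with no overlap of libraries. SPA4 changed by -1.25 and SPA1 by -0.89, and RUP2, a repressor of the UV-B receptor UVR8, by -0.85. Smaller falls were those of PHYB (-0.41), SPA2 (-0.39), CRY1 (-0.28) and UVR8 (-0.17). PHYA, the phytochrome that is most abundant in darkness, rose by 0.26 ± 0.06 (adjusted p = 0.00285), from 179 to 214 CPM. FHL, which brings phytochrome A into the nucleus, rose by 0.71 at 1.77 to 3.06 CPM, but its libraries overlapped, and the call was lost when any of 4 libraries was left out (lowest 0.50, adjusted p = 0.225, without hy5-2 replicate 1) and with a replicate block on the 6 libraries (0.63, adjusted p = 0.0623). COP1 at 51.5 against 59.5 CPM did not pass (adjusted p = 0.0863).

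Among 10 B-box genes, which encode zinc-finger partners of HY5, 3 were lower and none was higher. BBX22 averaged 18.8 CPM in hy5-2 and 38.8 CPM in Col-0, where the libraries of each genotype lay within 1 CPM of each other, and changed by -1.04 ± 0.09 (adjusted p = 1.58e-10). BBX24, known as STO, changed by -0.65. BBX30 changed by -0.71 (adjusted p = 0.039), a call that was lost whichever of the 6 libraries was left out (adjusted p up to 0.122).

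Genes of flavonol synthesis included some of the largest falls. Of 21 tested flavonoid enzyme genes, 12 were lower and 2 higher, with a median of -1.58. Chalcone synthase CHS (AT5G13930, chromosome 5, 4488688 to 4490264), the first committed enzyme, read 1.18, 0.981 and 1.01 CPM in hy5-2 and 350, 361 and 392 CPM in Col-0. Every wild-type library was thus far above every mutant one, and the log2 fold change was -8.42 ± 0.28 (adjusted p = 2.54e-16). Chalcone isomerase CHI averaged 2.196 ± 0.734 CPM in hy5-2 and 70.6 ± 4.48 CPM in Col-0 (-5.02 ± 0.16).

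Flavanone 3-hydroxylase F3H (AT3G51240, chromosome 3, 19025192 to 19026872) had 3 counts over the 3 mutant libraries and 2503 over the wild-type ones. Counts over the group gave a ratio of 612 with a 95% interval of 209 to 2967, which covers counting error only. An antisense locus that overlaps most of F3H, AT3G51238, held nearly the same level in Col-0, 55.0 CPM, so the reads of this pair could not be told apart. Flavonol synthase FLS1 read 0.314, 0.0981 and 0 CPM in hy5-2 and 64.4, 52.5 and 68.1 CPM in Col-0 (-8.56 ± 0.29, adjusted p = 1.39e-21). All 3 mutant libraries were also below the lowest library of Col-0 in low light, at 0.645 CPM.

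The same direction held for CHIL (-4.82), which raises the output of chalcone synthase, for the flavonoid 3'-hydroxylase TT7 (-4.17), for 4CL3 (-4.08) and for the flavonol glycosyltransferases UGT78D1 (-2.06) and UGT78D2 (-2.04). Of phenylpropanoid genes that also serve lignin synthesis, C4H rose from 547 to 685 CPM (0.33 ± 0.07, adjusted p = 0.00108) and OMT1 from 598 to 786 CPM (0.39 ± 0.06), while PAL1 and PAL2 did not pass at -0.08 and -0.14. The anthocyanin branch could not be assessed, since DFR had 1 count and LDOX none in the 6 libraries, and the MYB genes PAP1 and PAP2 were below the filter on low counts.

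MYB12 (AT2G47460, chromosome 2, 19476337 to 19479478), the activator of flavonol enzyme genes, had 1 count in the mutant libraries against 12.4, 12.6 and 14.1 CPM in Col-0. The ratio of counts was 437, with a 95% interval of 78.1 to 17280 by counting. Among the other 12 tested regulators, CPC fell by 1.01 and the nitrate-responsive repressors LBD39 and LBD37 rose by 0.87 and 0.33; the call of LBD37 was lost when any of 3 libraries was left out (lowest 0.25, adjusted p = 0.129, without Col-0 replicate 1).

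The sinapate branch, which shares the early steps and gives ultraviolet-absorbing esters, was lower in 4 of 5 tested genes. UGT84A2, a sinapate glucosyltransferase, read 0.314, 0.491 and 0.709 CPM in hy5-2 and 35.8, 29.6 and 31.9 CPM in Col-0. The groups were apart in every library, with a change of -6.01 ± 0.19 (adjusted p = 2.88e-22). SNG1 changed by -2.35, UGT84A1 by -1.94 and FAH1 by -0.33.

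**Figure D2:**
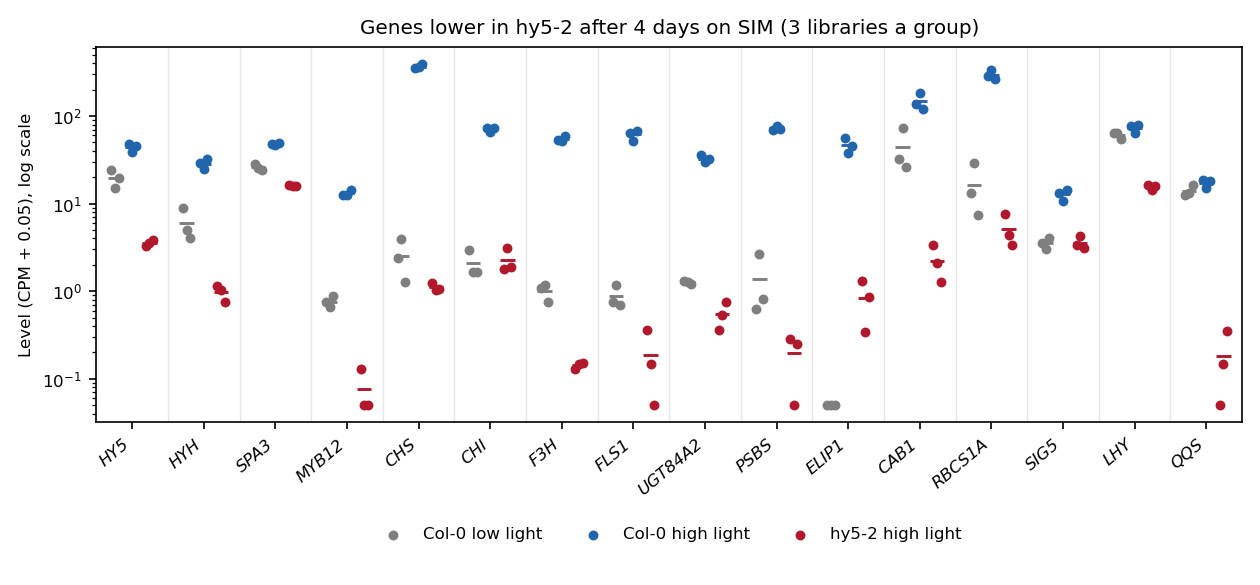
Levels of 16 genes lower in hy5-2, as CPM plus 0.05 on a log axis; each point is 1 library, bars are group means, and grey is Col-0 in low light. The hy5-2 points of MYB12, F3H, FLS1, UGT84A2, CAB1 and HYH lie below the grey points, those of CHI and SIG5 lie beside them, and ELIP1 was at 0 in low light.

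Promoters of 6 strongly reduced genes are shown, since HY5 is known to bind ACGT cores; they were picked after their values and letters were seen, so as to hold windows with and without CACGTG. The window is the 250 bases before the RefSeq gene start in TAIR10.1, which is not the count table's start for CHS, FLS1, MYB12 and ELIP1. Capitals mark the G-box letters CACGTG, which read the same on both strands, and any other ACGT.
CHS: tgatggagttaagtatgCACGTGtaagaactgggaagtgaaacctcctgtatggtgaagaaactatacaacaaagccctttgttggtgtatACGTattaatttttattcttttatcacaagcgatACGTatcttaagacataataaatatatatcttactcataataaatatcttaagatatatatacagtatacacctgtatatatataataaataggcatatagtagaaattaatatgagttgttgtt
F3H: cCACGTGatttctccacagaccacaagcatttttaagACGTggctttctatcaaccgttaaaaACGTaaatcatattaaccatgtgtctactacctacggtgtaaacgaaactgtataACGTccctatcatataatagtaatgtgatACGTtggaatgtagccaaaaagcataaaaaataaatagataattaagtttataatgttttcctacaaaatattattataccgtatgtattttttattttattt
MYB12: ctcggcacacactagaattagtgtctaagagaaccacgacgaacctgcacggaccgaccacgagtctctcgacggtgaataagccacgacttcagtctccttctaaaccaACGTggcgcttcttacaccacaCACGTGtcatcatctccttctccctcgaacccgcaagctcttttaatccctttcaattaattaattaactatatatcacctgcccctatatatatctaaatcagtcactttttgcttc
FLS1: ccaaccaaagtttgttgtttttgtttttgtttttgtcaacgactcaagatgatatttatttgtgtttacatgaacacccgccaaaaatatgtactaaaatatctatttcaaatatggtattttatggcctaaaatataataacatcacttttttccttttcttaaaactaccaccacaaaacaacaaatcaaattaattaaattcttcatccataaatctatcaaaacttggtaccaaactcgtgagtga
ELIP1: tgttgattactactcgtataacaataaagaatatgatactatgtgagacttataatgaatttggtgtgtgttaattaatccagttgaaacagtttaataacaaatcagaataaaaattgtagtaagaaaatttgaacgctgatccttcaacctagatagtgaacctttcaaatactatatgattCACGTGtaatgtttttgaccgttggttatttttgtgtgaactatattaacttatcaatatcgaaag
PSBQ-2: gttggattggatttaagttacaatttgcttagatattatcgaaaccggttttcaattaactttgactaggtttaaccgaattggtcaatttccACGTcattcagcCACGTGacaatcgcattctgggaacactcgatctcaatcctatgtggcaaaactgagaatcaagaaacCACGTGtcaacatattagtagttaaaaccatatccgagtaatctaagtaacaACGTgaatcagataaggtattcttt
These lie at chr5:4488226-4488475 (plus strand) for CHS, chr3:19024942-19025191 (plus) for F3H, chr2:19476076-19476325 (plus) for MYB12, chr5:2803583-2803832 (plus) for FLS1, chr3:8085670-8085919 (minus) for ELIP1 and chr4:2673244-2673493 (minus) for PSBQ-2. CACGTG starts 233 bases before the gene start in CHS, 249 in F3H, 118 in MYB12 and 66 in ELIP1, and PSBQ-2 holds it at 145 and at 77 bases. The FLS1 window holds neither CACGTG nor ACGT, which says only that these letters are not in this window.

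Over all 20064 tested protein-coding genes with a window, 7.16% held CACGTG and 44.3% held ACGT. Among 2021 lower genes 10% held CACGTG, and among the 164 that were at least 8-fold lower 13.4% did. Of 2105 higher genes 7.46% held it, and of the 772 at least 2-fold higher 5.96%. ACGT, which includes every CACGTG, stood in 47.4% of lower and 49.8% of higher genes. These shares are descriptions of letters in 1 window and carry no test.

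Nuclear genes of the photosynthetic apparatus were lower almost throughout. In bulk explants fewer green cells and less RNA in each cannot be told apart, here and in the groups that follow. Of 48 tested photosystem and electron transport genes, 44 were lower and none higher, against 10% lower among all genes, and their median was -3.09. Summed over the list, levels were 229 to 294 CPM in hy5-2, 2006 to 2435 CPM in Col-0 and 521 to 904 CPM in Col-0 in low light. The mutant sums thus lay below those of the wild type in either light.

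CAB1, a light-harvesting chlorophyll protein gene of photosystem II, read 3.29, 2.06 and 1.21 CPM in hy5-2 and 138, 183 and 121 CPM in Col-0 (-6.01 ± 0.49, adjusted p = 1.30e-09). In Col-0 in low light it stood at 32.7, 73.4 and 26.3 CPM, so that the order was the same in every library. Reads of CAB1 may be shared with its near-identical LHCB1 copies, among them LHCB1.1, which had no count in hy5-2 and was at least 10.75-fold lower against a floor of 3 counts over the group. PSBQ-2, of the oxygen-evolving complex, averaged 0.336 ± 0.145 CPM in hy5-2 and 16.3 ± 3.07 CPM in Col-0 (-5.53 ± 0.52). Photosystem I genes included PSAE-1 (-5.06), LHCA2 (-4.96) and PSAL (-4.73). The smallest changes among the genes that passed were those of PSAD-2 (-1.41), LHCA4 (-1.49) and FD2 (-1.59).

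Against Col-0 in low light, 29 of the 48 genes were lower in hy5-2 and none was higher, where 5.51% of all genes were higher and 2.51% lower. This comparison and that between lights in Col-0 share libraries with the main one and are set beside it only for levels. For PSBR, of photosystem II, which averaged 10.9, 112 and 21.2 CPM in hy5-2, Col-0 and Col-0 in low light, the difference from low light was -0.95 (adjusted p = 0.00873). For LHCB4.3, at 1.43, 11.9 and 1.46 CPM, it was -0.03 (adjusted p = 0.992).

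Calvin cycle genes were lower in 14 of 18, with none higher and a median of -3.14, or -2.96 with genes that lacked counts in hy5-2 set at their bound. RBCS1A, a small subunit gene of Rubisco, read 7.53, 4.32 and 3.34 CPM in hy5-2 and 286, 333 and 265 CPM in Col-0, far apart in all libraries (-5.81 ± 0.49, adjusted p = 2.26e-09). Its reads too are uncertain among the RBCS copies. The fructose-bisphosphate aldolase gene FBA1 averaged 1.64 ± 0.323 and 29.4 ± 6.55 CPM (-4.17), and GAPB, of glyceraldehyde-3-phosphate dehydrogenase, 3.77 and 58.5 CPM (-3.92). Unlike the photosystem list, 1 of 18 was lower than in Col-0 in low light; that difference between lists was not tested.

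Chlorophyll synthesis was lower in 23 of 25 genes (median -1.05), with sizes that differed along the pathway. GUN4, which binds the magnesium chelatase, read 0.157, 0.196 and 0.202 CPM in hy5-2 and 14.1, 11.3 and 13.5 CPM in Col-0 (-6.06 ± 0.35, adjusted p = 4.92e-15). The groups were apart by more than 10 CPM in each library. Other genes of the chlorophyll-specific steps changed by -3.95 (PORB), -3.61 (AT1G74470), -3.49 (GUN5) and -3.21 (CRD1). Genes of the shared tetrapyrrole steps changed less, with HEMA1 at -0.57, LIN2 at -0.52 and HEMB1 at -0.36, and GSA1 and PPOX did not pass at -0.20 and -0.17.

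Photoprotection and carotenoid genes were lower in 14 of 16 (median -1.50). PSBS, the protein that triggers heat dissipation of excess light, read 0.235, 0 and 0.202 CPM in hy5-2 and 69.9, 76.7 and 70.7 CPM in Col-0. No mutant library came within 50 CPM of a wild-type one, and the change was -8.79 ± 0.43 (adjusted p = 1.83e-14). The early light-inducible gene ELIP1 stood at 1.25, 0.294 and 0.810 CPM in hy5-2, at 56.5, 38.2 and 46.0 CPM in Col-0, and at 0 in each low-light library. It fell by 5.81 ± 0.29 on the log2 scale between genotypes. ELIP2 averaged 3.57 and 18.6 CPM (-2.34).

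Of 10 genes that regulate greening, 6 were lower. CGA1, a GATA factor induced by light and cytokinin, had no count in hy5-2 and 1.77, 1.77 and 2.84 CPM in Col-0, at least 25.2-fold lower against a floor of 3 counts over the group. It had no count in Col-0 in low light either. Sigma factor genes of the plastid RNA polymerase followed, with SIG5 at 3.52 against 12.7 CPM (-1.86 ± 0.19, adjusted p = 2.71e-09), SIG6 at -1.67 and SIG2 and SIG3 at -0.81 and -0.78. GLK2 did not pass at -0.28. GLK1 was at 10 counts in hy5-2 and 3 in Col-0, a ratio of 4.55 with a counting interval of 1.17 to 25.7, and did not pass (adjusted p = 0.0532; 0.0453 with a block for replicate number).

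**Figure D3:**
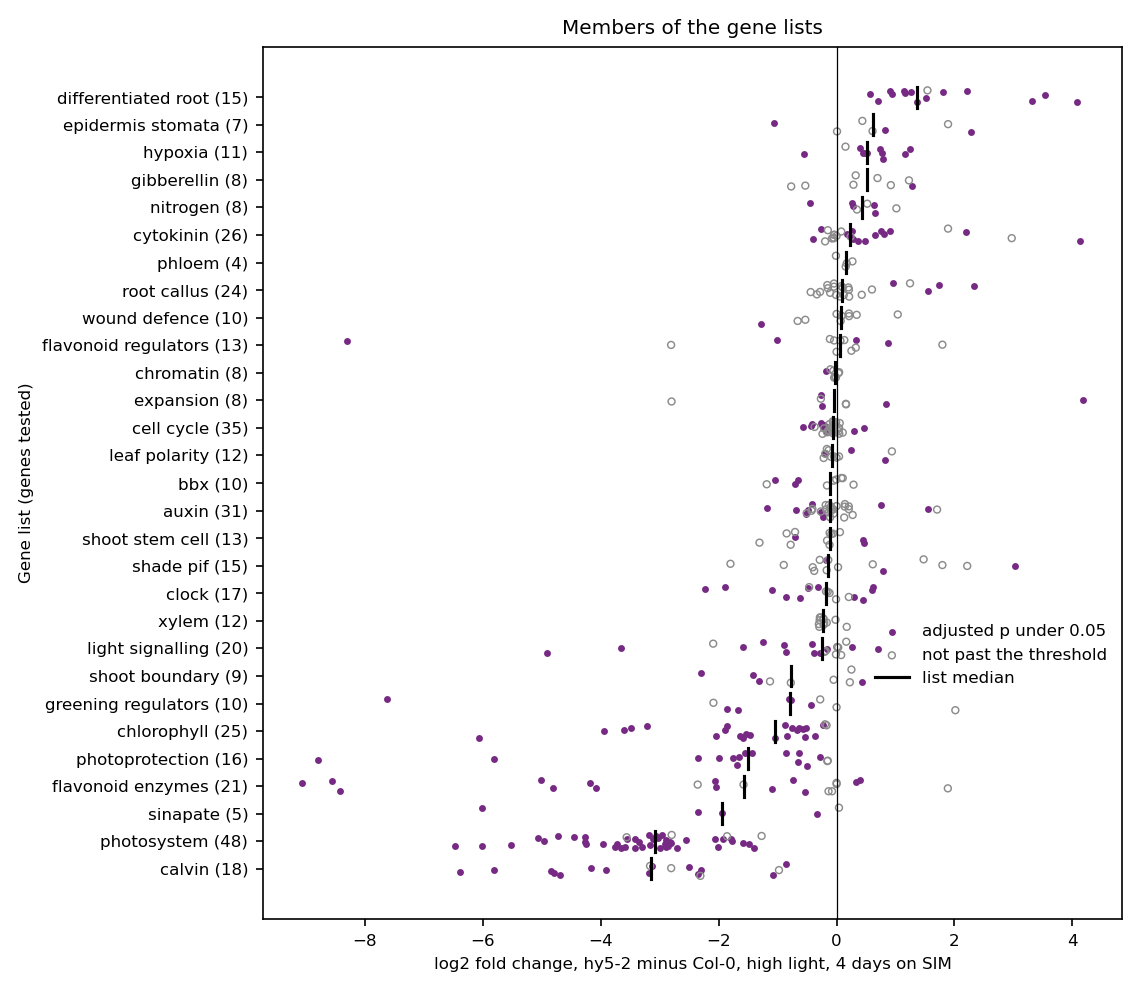
Each point is the log2 fold change of 1 tested member of a gene list, hy5-2 minus Col-0; filled points passed the adjusted p of 0.05 and black bars are list medians. Calvin and photosystem medians lie near -3, and the differentiated root list at 1.36 has the highest median.

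Clock genes moved in both directions, with 7 of 17 lower and 4 higher (median -0.18), beside 10% and 10.4% among all genes. LHY, a morning-phased MYB gene, read 16.3, 14.4 and 15.996 CPM in hy5-2 and 76.6, 64.2 and 78.3 CPM in Col-0. Its change was -2.23 ± 0.16 (adjusted p = 3.07e-11), and its partner CCA1 changed by -0.85 ± 0.13. Both were at 27.1 or more CPM on average in Col-0 in either light, and their differences between lights in Col-0 did not pass (0.27 for LHY and -0.02 for CCA1). ELF4, of the evening complex, averaged 8.98, 33.3 and 7.30 CPM in hy5-2, Col-0 and Col-0 in low light (-1.90 ± 0.12). GI (0.60), PRR3 (0.61), LUX (0.45) and PRR5 (0.30) were higher. The labels give continuous light for the seedlings, and no hour of sampling.

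In the main fit shoot regulators that passed went in both directions, and only organ boundary genes among them changed at least 2-fold. Of 9 shoot boundary genes, 3 were lower and 1 higher (median -0.78). CUC1 (AT3G15170, chromosome 3, 5109883 to 5111447), a NAC gene needed for shoot meristem formation, read 2.12, 3.63 and 2.83 CPM in hy5-2 and 5.30, 7.06 and 8.17 CPM in Col-0. The libraries did not overlap, and the change was -1.32 ± 0.22 (adjusted p = 2.19e-05). Col-0 in low light, at 2.67 ± 0.234 CPM, was close to the mutant.

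ESR1, an AP2 gene that promotes regeneration when overexpressed, read 2.27, 2.65 and 2.02 CPM in hy5-2 and 3.77, 7.20 and 6.95 CPM in Col-0 (-1.42 ± 0.24, adjusted p = 2.44e-05). Here the mutant also lay below Col-0 in low light, which averaged 6.28 CPM (-1.45, adjusted p = 7.31e-05). LSH4, a boundary gene downstream of CUC1, averaged 1.31 ± 0.122 CPM in hy5-2 and 6.58 ± 0.565 CPM in Col-0 (-2.31 ± 0.31, adjusted p = 4.85e-07). RAP2.6L, an ERF gene of regenerating tissue, rose by 0.43 ± 0.11, from 399 to 540 CPM. CUC2 averaged 31.6 ± 6.76 and 26.5 ± 3.91 CPM with overlapping libraries and did not pass at 0.23 (adjusted p = 0.344), though it did in a fit of the 6 libraries with a replicate block (adjusted p = 0.0048). ESR2 had 2 counts in hy5-2 and 5 in Col-0 and did not pass (adjusted p = 0.704).

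Of 13 shoot stem cell genes, 1 was lower and 2 higher (median -0.12), beside 10% lower and 10.4% higher among all genes. The change was negative in 10 and positive in 3, and 4 were lower with a replicate block on the 6 libraries. WUS, which specifies the shoot stem cell niche, read 1.25, 1.86 and 1.01 CPM in hy5-2 and 2.12, 2.33 and 2.53 CPM in Col-0. Its libraries did not overlap, but the change of -0.78 ± 0.39 did not pass (adjusted p = 0.191), except in the fit of 6 libraries with a replicate block (adjusted p = 0.028). STM stood at 0.491 to 0.627 and 0.707 to 1.08 CPM (-0.70, adjusted p = 0.323).

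CLV3, the peptide gene of the stem cells, had 0.309 ± 0.158 and 0.718 ± 0.328 CPM (-1.31 ± 0.54, adjusted p = 0.0891, and 0.0497 without Col-0 replicate 1). BLR, a homeodomain partner of KNOX proteins, fell by 0.70 ± 0.10, from 29.2 to 18.0 CPM. HAM1 rose by 0.44 and KNAT2 by 0.46. Leaving out 1 library ended the call of HAM1 in 2 of 6 cases (lowest 0.34, adjusted p = 0.0817) and that of KNAT2 in 4 (lowest 0.33, adjusted p = 0.273). Of 12 leaf polarity genes, KAN rose by 0.81 ± 0.19, ARF4 rose by 0.25 and HB-8 changed by -0.20, and the calls of ARF4 and HB-8 were lost when single libraries were left out. With a replicate block, 4 genes of this list were lower.

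Of 24 tested genes of root meristem and callus, 4 were higher and none lower (median 0.09), beside 10.4% higher among all genes. Without hy5-2 replicate 3, 2 were higher, and with a replicate block on the 6 libraries 4 were lower. PLT1, an AP2 gene of the root stem cell niche, read 4.63, 5.89 and 13.9 CPM in hy5-2 and 1.30, 0.777 and 2.21 CPM in Col-0. All mutant libraries lay above all wild-type ones, with replicate 3 the highest in both genotypes, and the change was 2.33 ± 0.52 (adjusted p = 0.00162). PLT2 averaged 2.57 ± 1.17 and 0.754 ± 0.309 CPM (1.55 ± 0.39), and 1.19 without hy5-2 replicate 3 (adjusted p = 0.062). SCR, of the root endodermis and quiescent centre, was steadier at 14.7, 19.2 and 17.1 CPM against 6.601, 8.62 and 9.93 CPM (0.95 ± 0.15, adjusted p = 1.66e-05).

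WOX5, the quiescent centre gene, rested on 1 library: hy5-2 read 0.392, 0.785 and 2.94 CPM and Col-0 0.354, 0.424 and 0.361 CPM. It passed at 1.73 (adjusted p = 0.0289) but stood at 0.57 without hy5-2 replicate 3 (adjusted p = 0.642), and the call was also lost without any of the Col-0 libraries (adjusted p up to 0.117). Callus genes that did not pass included AIL6 at 197 and 186 CPM (0.08, adjusted p = 0.514) and LBD16, at 4.56 and 3.79 CPM (0.21, adjusted p = 0.704).

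Of all lists, that of differentiated root tissue had the largest share of higher genes, 14 of 15 with none lower and a median of 1.36, against 10.4% higher among all genes. Summed levels were 181 to 252 CPM in hy5-2, 80.5 to 121 CPM in Col-0 and 126 to 170 CPM in Col-0 in low light. CASP1 (AT2G36100), which organises the Casparian strip of the endodermis, read 6.90, 8.44 and 10.4 CPM in hy5-2 and 0.236, 0.918 and 0.316 CPM in Col-0. The libraries were apart by several CPM, with a change of 4.08 ± 0.33 (adjusted p = 3.29e-11). A gene on the other strand, AT2G36090, overlaps CASP1 and was at 19.3 and 16.8 CPM without passing. CASP2 (3.31), PER64 (2.21) and MYB36 (0.94), all of the same barrier, were higher too.

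Root hair genes rose with them: RSL4 averaged 18.7 and 6.80 CPM (1.36 ± 0.27), EXPA7 36.5 and 14.6 CPM (1.26 ± 0.26) and RHD6 changed by 0.90. The part of root tissue content in other changes was not tested.

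**Figure D4:**
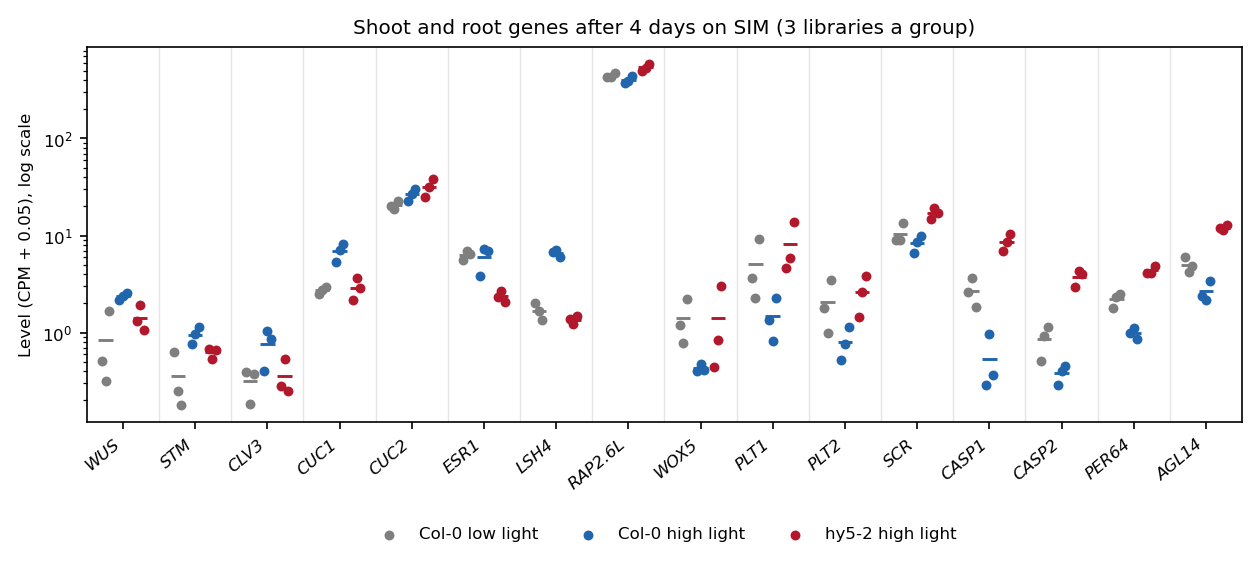
Levels of 16 shoot and root genes as CPM plus 0.05 on a log axis; each point is 1 library, bars are group means, and grey is Col-0 in low light. CUC1, ESR1 and LSH4 are lower in hy5-2 than in Col-0 in high light, CASP1, CASP2, PER64 and AGL14 are higher, and WOX5 and PLT1 spread most among hy5-2 libraries.

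Cytokinin genes were more often higher than lower, 12 against 2 of 26 (median 0.23), beside 10.4% and 10% among all genes. CKX4, a cytokinin oxidase, read 5.25, 5.79 and 4.56 CPM in hy5-2 and 0.943, 1.62 and 0.858 CPM in Col-0 (2.19 ± 0.26, adjusted p = 6.47e-08). CKX1 averaged 104 and 61.3 CPM (0.76 ± 0.10) and CKX5 79.8 and 50.7 CPM (0.65 ± 0.08). Among type-A response regulators, which cytokinin induces, ARR5 rose by 0.36 ± 0.06 (188, 181 and 189 against 151, 139 and 145 CPM), ARR3 by 0.91 and ARR16 by 0.81.

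ARR15 did not pass at -0.04, nor ARR7 at -0.15 (adjusted p = 0.278, and 0.00234 in the fit of 6 libraries with a replicate block). The cytokinin receptor gene AHK4 changed by 0.26. IPT5, a cytokinin synthesis gene, had 19 counts in hy5-2 and 1 in Col-0, a ratio of 25.9 with a counting interval of 4.12 to 1077. CKX6 (-0.26) and CKX7 (-0.40) were lower, but each call was lost when single libraries were left out, and an antisense locus of nearly the same level shares the interval of CKX6.

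Auxin genes were lower in 7 of 31 and higher in 2 (median -0.11), beside 10% lower and 10.4% higher among all genes. With a replicate block 5 were higher, and with the block on the 6 libraries 11 were lower and 6 higher. Without hy5-2 replicate 3, Col-0 replicate 1 or Col-0 replicate 3, 4 were lower and 1 higher. PIN4, an auxin exporter, read 50.02, 46.4 and 48.2 CPM in hy5-2 and 119, 104 and 105 CPM in Col-0, with no overlap (-1.17 ± 0.10, adjusted p = 8.12e-11). IAA3, also named SHY2, fell by 0.68 ± 0.12. IAA28 rose by 0.75 ± 0.10, from 41.1 to 69.2 CPM, and TAA1, of auxin synthesis, by 1.55 at 1.04 against 0.332 CPM, a call lost when any of 5 libraries was left out (lowest 1.31, adjusted p = 0.144, without hy5-2 replicate 1). Of 15 shade and PIF genes, 2 were higher and 1 lower, beside 10.4% and 10% among all genes. YUC8, of auxin synthesis, rose by 3.02 ± 0.62, but had only 44 counts over the hy5-2 libraries and 7 over the Col-0 ones. XTH15 changed by 0.79, or 0.44 without Col-0 replicate 3 (adjusted p = 0.238), and HAT2 by -0.19, lost without most single libraries (adjusted p up to 0.201). PIF4, of growth in shade and warmth, had 1 count in hy5-2 and 6 in Col-0 and did not pass (adjusted p = 0.486).

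Hypoxia-responsive genes were higher in 9 of 11 (median 0.52). HB1, a non-symbiotic haemoglobin gene, read 37.3, 45.9 and 40.6 CPM in hy5-2 and 16.3, 19.1 and 16.8 CPM in Col-0 (1.24 ± 0.12, adjusted p = 8.16e-10). ADH1, alcohol dehydrogenase, averaged 103 ± 7.81 and 59.8 ± 8.34 CPM (0.79 ± 0.11), and PDC1, pyruvate decarboxylase, 18.0 ± 2.00 and 10.7 ± 0.935 CPM (0.74 ± 0.13, adjusted p = 5.46e-05). PDC2 went the other way, from 67.6 to 46.0 CPM (-0.56 ± 0.07). HRE1 changed by 1.16 and HRE2 did not pass at 0.15.

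Nitrogen genes were higher in 4 of 8, among them the nitrate reductase genes NIA1 (0.65 ± 0.07) and NIA2 (0.27 ± 0.06) and the nitrate transporter gene NRT1.1 (0.64 ± 0.11), while GS2, the plastid glutamine synthetase, fell by 0.46, a call lost without hy5-2 replicate 1 (-0.36, adjusted p = 0.0588). Of 35 cell cycle genes, 8 were lower and 2 higher (median -0.06), beside 10% lower and 10.4% higher among all genes. The lower count was 4 without hy5-2 replicate 2 and 5 without hy5-2 replicate 3 or any of the Col-0 libraries, and the higher count was 0 or 1 with any library left out. No xylem gene of 12 and no phloem gene of 4 passed, with medians of -0.22 and 0.16; with a replicate block 1 of each was higher, and on the 6 libraries alone 5 xylem genes were lower. The epidermal genes CER1 and FDH, of cuticle wax and fatty acid elongation, rose by 2.28 ± 0.39 and 0.82 ± 0.19. VSP2, a jasmonate-responsive storage protein gene, was the 1 of 10 wound and defence genes to pass, at 77.6 against 189 CPM (-1.28 ± 0.13).

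Expansin genes were split at 2 higher and 2 lower of 8, beside 10.4% higher and 10% lower among all genes. EXPA8 rose by 0.85 ± 0.14 and EXPA4 fell by 0.27, or by 0.24 without hy5-2 replicate 3 (adjusted p = 0.0751), where no expansin gene was lower. EXPA11 had 46 counts against 3, a ratio of 20.9 with a counting interval of 6.73 to 105. EXPA10 stood at -0.25, and at -0.17 without Col-0 replicate 2 (adjusted p = 0.249). GA20OX1, of gibberellin synthesis, rose by 1.28 ± 0.28 as the 1 of 8 gibberellin genes to pass, where a replicate block called 4, and the polycomb gene SWN, at -0.18, was the 1 chromatin gene of 8 to pass and was lost without 4 of the 6 single libraries.

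Among the largest changes outside these lists, QQS (AT3G30720), an orphan gene tied to starch content, read 0, 0.0981 and 0.304 CPM in hy5-2 and 18.5, 15.04 and 18.1 CPM in Col-0 (-7.01 ± 0.29, adjusted p = 4.24e-19). Col-0 in low light stood at 14.04 ± 2.05 CPM, and hy5-2 was already lower before culture (-6.05, adjusted p = 3.65e-18). Among genes with a reference symbol and a mean of at least 5 CPM whose groups did not overlap, the largest rise was that of PXMT1, a methyltransferase gene, at 24.5, 15.2 and 15.996 CPM against 1.53, 1.84 and 0.497 CPM (4.04 ± 0.58, adjusted p = 9.61e-06). The next were ARD3 (3.13), LTP5, a lipid transfer protein gene (2.58), the mechanosensitive channel gene MSL9 (2.41) and CYSD2 (2.37), of cysteine synthesis.

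SBT4.12, a subtilase gene, rose evenly, at 96.4, 106 and 120 CPM against 19.3, 22.9 and 26.1 CPM (2.21 ± 0.17, adjusted p = 1.24e-10). AGL14, a MADS-box gene of roots, rose by 2.13 ± 0.19, with 11.3 to 12.8 CPM in hy5-2 and 2.12 to 3.39 CPM in Col-0. The aquaporin gene NLM1 rose by 2.09 ± 0.19 and the trehalase gene TRE1 by 2.07 ± 0.21, and the laccase gene LAC3 had 8.78 to 9.52 against 1.98 to 2.48 CPM. In MSL9, CYSD2, UGT85A1 and GASA4, replicate 3 was the highest library in hy5-2, in Col-0 and in Col-0 in low light alike. GASA4 read 63.4, 77.6 and 119 CPM in hy5-2, 11.3, 19.1 and 27.2 CPM in Col-0, and 23.3, 24.03 and 58.9 CPM in low light (2.09 ± 0.37).

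The genotype effect was set beside those at the other stages, in the same fit. Between SIM and CIM, medium and time in culture change together. In high light after 4 days on CIM, 1328 genes were higher and 1907 lower (6.37% and 9.15%), after 8 days on SIM 2113 and 2790 (10.1% and 13.4%), and in low light before culture 412 and 655 (1.98% and 3.14%). A test of the difference of effects called 892 genes with a higher (4.28%) and 641 with a lower effect (3.08%) at SIM 4 days than on CIM. Against SIM 8 days it called 62 and 47 (0.297% and 0.226%), 109 in all. That count was 269 with a replicate block, 241 with DESeq2 and 39 without hy5-2 replicate 3 of SIM 4 days. For comparison, high against low light in Col-0 at SIM 4 days called 1895 genes higher and 914 lower (9.09% and 4.39%).

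Before culture 8 of the 21 flavonoid enzyme genes were higher in hy5-2 and none lower. CHS at T0 was higher in hy5-2 (1.49, adjusted p = 0.0289), against -10.26, -8.42 and -8.31 at CIM 4 days, SIM 4 days and SIM 8 days. UGT84A2 went from a higher level at T0 (0.45) to -1.48 on CIM, -6.01 after 4 days and -4.72 after 8 days on SIM, and its change between CIM and SIM 4 days was -4.53 ± 0.24 (adjusted p = 1.03e-14). RBCS1A changed by -3.50 on CIM and -5.81 on SIM, a difference of -2.32 ± 0.67 (adjusted p = 0.0341). The photosystem list was lower in 7 of 48 at T0, 44 on CIM and 46 at SIM 8 days.

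Some genes higher on SIM did not pass on CIM. The differentiated root list had 0 of 15 higher on CIM, 14 at SIM 4 days, 8 at SIM 8 days and 7 at T0. The test of the difference itself called 3 of the 15 against CIM (ESB1, PER64 and GSO1) and 1 against SIM 8 days (ESB1), so these counts do not show a difference between stages for the other members. For PER64 the difference between SIM 4 days and CIM was 2.91 ± 0.73 (adjusted p = 0.0135), and for CKX4 2.50 ± 0.56 (adjusted p = 0.00383). Some hypoxia genes had larger effects at SIM 8 days, where PDC1 changed by 2.17 and ADH1 by 1.76, and the differences of SIM 4 days from SIM 8 days were -1.43 ± 0.19 and -0.97 ± 0.16 (adjusted p = 5.68e-05 and 0.00229). CUC1 and LSH4 had like effects at SIM 8 days (-1.15 and -2.27), where STM (-1.06, adjusted p = 0.00192) and CLV3 (-1.28, adjusted p = 0.00329) passed as well. The differences of those 4 genes between SIM 4 days and SIM 8 days did not pass. Of the 13 shoot stem cell genes, 6 were lower and none higher at SIM 8 days (median -0.76), where 13.4% of all genes were lower. No member of that list passed the test of the difference between SIM 4 days and SIM 8 days.

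**Figure D5:**
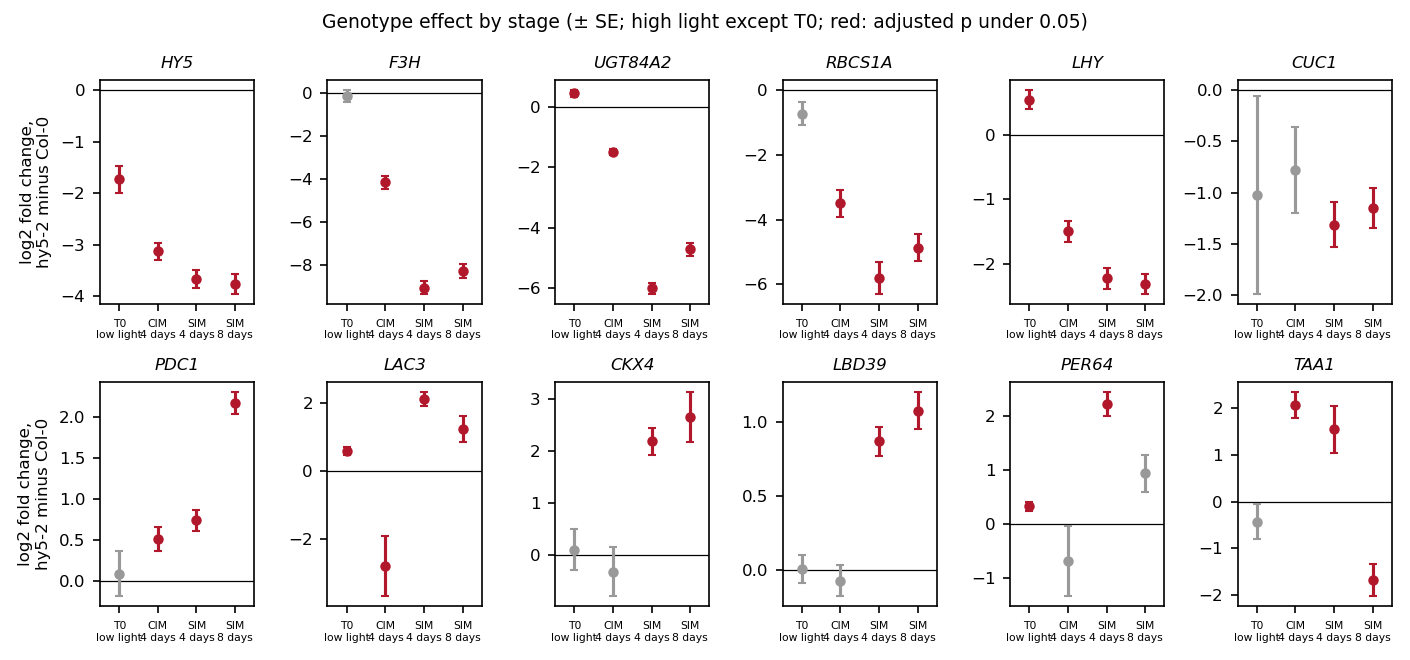
Genotype effect (log2 fold change, hy5-2 minus Col-0, ± SE) at each stage for 12 genes; red points passed the adjusted p of 0.05, and axes differ between panels. F3H and UGT84A2 are lowest after 4 days on SIM, but their differences from 8 days did not pass in edgeR's test (adjusted p = 0.931 and 0.284). PDC1 is highest after 8 days, and TAA1 changes from 1.55 to -1.68 between 4 and 8 days.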

How the data were processed

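The deposited counts are whole reads per gene of the TAIR10 annotation in 33 libraries, a single table of raw counts made by the authors; per the submitters' processing notes the tools were STAR, SAMtools, bedtools and edgeR, with no roles or versions stated. The library kit marks strand, and the strand setting of the counting is not stated. F3H and its antisense locus held 2503 and 2502 counts in Col-0, so reads of this pair appear to have been counted for both strands. Other named genes, among them SPA3, PSBR, PSAE-2 and CRD1, also overlap a locus on the other strand in part. Of 33400 loci in the table, 5138 were at 0 throughout, the 77 chloroplast loci among them. Totals were 8.06 to 21.2 M in the 6 libraries compared and 7.24 to 21.2 M over all 33; counting intervals (95%, Clopper-Pearson) and floors of 3 counts cover counting error only.

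Libraries were grouped by their labels. Genes were kept with edgeR's filterByExpr (minimum count 10, total 15), scaled by TMM and fitted with edgeR 4.0.16 (quasi-likelihood, robust) in R 4.3.3 with a coefficient for each of the 11 groups, so that all libraries shared the estimate of the spread. P-values were adjusted by Benjamini-Hochberg over 20842 genes, with 0.05 as the threshold, and SE is the log2 fold change over the root of F. Alternatives were RLE scaling, other filters on low counts, a replicate block, only the groups compared, DESeq2 1.42.0 and leaving out each library; the replicate block on only the 6 libraries was chosen after seeing the data. The fits were tested on simulated data. Deviations from group means of same-numbered hy5-2 and Col-0 libraries correlated across 15685 genes at 0.504, 0.484 and 0.329, so replicate numbers pair the samples in these data. Those of different numbers stood at -0.393 to -0.0797. Deviations within a group sum to 0, so these negative values follow from the positive ones and are no further evidence. No label says what a number shares.

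Gene names came from the RefSeq table of TAIR10.1, which matched 32835 loci. The 29 gene lists and the comparison itself were chosen with earlier results of these data known. Genes were named by a rule: 28 fixed genes such as HY5, WUS and CHS; the 12 largest rises and 12 largest falls past the threshold among genes with a symbol, a mean of at least 5 CPM and no overlap of the groups; and up to 3 members per list and direction with the smallest adjusted p. Any other gene in the text was chosen after its values were seen. Some results are not reported here.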

Additional observations from a re-analysis of the deposited data

Results flagged for a closer look

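A test of the difference itself compared the genotype effect (log2 fold change, hy5-2 minus Col-0) at SIM 4 days with that after 4 days on CIM. It passed for 35 of the 126 named genes, with adjusted p up to 0.0421 in edgeR's quasi-likelihood test. Over all tested genes, 4.28% had a higher and 3.08% a lower effect at SIM 4 days. Many named genes were picked for their values at SIM 4 days, which enter this test, so their share is not comparable with that of all genes. Medium and time in culture change together between these stages.

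The effect was lower at SIM 4 days than on CIM in 20 of the 35 genes. In flavonoid and sinapate genes the difference was -4.90 for F3H, -4.53 for UGT84A2, -4.07 for MYB12 and -1.73 for CHI. In genes of photosynthesis and greening it was -3.90 for PSBS, -2.71 for GUN4, -2.32 for RBCS1A, -2.14 for ELIP1, -1.89 for FBA1, -1.14 for SIG6, -1.13 for AT1G74470, -1.07 for PSAE-2, -0.95 for CP12-1 and -0.40 for PGK1. In genes of growth and development it was -0.82 for CUC2, -0.58 for CYCD1;1, -0.47 for PIN4, -0.37 for CDKB2;1, -0.34 for AIL6 and -0.33 for CDKB2;2. Some of the largest differences rest on few counts. Over the hy5-2 libraries at SIM 4 days, F3H had 3 counts, MYB12 1, PSBS 5 and GUN4 6. The sizes of their differences are therefore uncertain.

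The effect was higher at SIM 4 days in the other 15. The difference was 4.89 for LAC3, 2.91 for PER64, 2.62 for YUC8, 2.57 for NLM1, 2.50 for CKX4, 2.02 for CER1, 1.93 for LTP5 and 1.4 for TRE1. It was 0.94 for LBD39, 0.70 for CKX5, 0.61 for NRT1.1, 0.49 for CKX1, 0.49 for BBX24, 0.45 for OMT1 and 0.32 for NIA2.

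For 8 of the 126 named genes the effect at SIM 4 days differed from that at SIM 8 days, with adjusted p up to 0.0322. Over all tested genes, 0.297% had a higher and 0.226% a lower effect at SIM 4 days. Here too, many named genes were picked for their values at SIM 4 days, so their share is not comparable with that of all genes. Calls of single genes in the tests of a difference were not repeated in the alternative runs. The difference was -3.84 for MYB12, -1.43 for PDC1, -0.97 for ADH1, -0.93 for HB1, -0.56 for C4H, -0.54 for SUS1, -0.46 for PDC2 and 3.23 for TAA1. MYB12 had 1 count over the hy5-2 libraries at SIM 4 days, so the size of its difference is uncertain. In PDC1, ADH1, HB1 and SUS1 the effect was positive at both times and larger at SIM 8 days.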

How the results depend on the processing

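No named gene that passed in the main or an alternative run had the opposite direction in the other. Changes of sign in genes that passed in neither were not counted. The genes higher in hy5-2 numbered 2167 and ranged from 1573 to 1983 with a library left out, to 2897 with a replicate block on the 6 libraries, and the 2085 lower genes from 1674 to 1926 and to 3119; RLE scaling gave 2274 and 1960, DESeq2 2178 and 1907. The block on all libraries gave 2491 and 2410. It called GLK1, and on the 6 libraries called WUS, CUC2 and ARR7 and lost FHL; it changed no other call of a named gene. The 1533 genes whose effect differed from CIM numbered 1148 to 1395 with a library left out and 2146 with the block. The 109 that differed from SIM 8 days numbered 269 with the replicate block, 241 with DESeq2 and 39 to 169 with a library left out, and the cause was not tested. Higher genes made up 47 to 53.7% of calls. Depth limits what can be said of genes at a few counts, such as DFR, LDOX and PIF4.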

Other observations

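Of 32 tested microRNA loci, 3 were higher and 4 lower in hy5-2, beside 10.4% higher and 10% lower among all genes. The locus of miR163, chosen after its values were seen, read 0.784, 0.981 and 1.01 CPM in hy5-2 and 9.19, 7.20 and 11.2 CPM in Col-0, with a change of -3.32 ± 0.28 (adjusted p = 4.34e-11). Counts at such a locus come from the precursor transcript in an mRNA library, not from the mature microRNA. PXMT1, which was higher in hy5-2 (4.04), is a known target of miR163, and the pair of sequences is shown for that reason.
miR163: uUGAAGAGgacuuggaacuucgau
PXMT1: catcgAGTTCCAAGTCCTCTTCAA
Capitals in miR163 (chr1:24884359-24884382, plus strand) mark its seed, bases 2 to 8. Capitals in PXMT1 (chr1:24874307-24874330, minus strand, coding exon) mark bases that pair with miR163 when no gap is allowed, all but 5 of 24. Pairing of the lower-case bases with a gap was not scored. Whether these changes are linked was not tested. MIR850 changed by -2.96, MIR863 by -2.88 and MIR398c by -0.91, and MIR822 by 1.55, MIR167d by 2.21 and MIR414 by 0.44.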
